A study of Mus musculus with 77 samples.

Results

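The respiratory complex I subunits were the 35 nuclear genes named Ndufa1 to Ndufv3 and were taken by symbol, by a rule that itself uses no measured value. All 35 were present among the 16587 genes measured in the brain region called the bed nucleus of the stria terminalis (hereafter BNST) and among the 13084 genes measured in blood. The mice were male, and were C57BL/6NCrl (B6; the labels write C57BL/6Crl) or DBA/2NCrl (D2; the labels write DBA/2Crl). Tissue was collected at 8 weeks of age, 6 to 8 days after chronic social defeat stress (CSDS), in which a mouse met a new aggressor each day. Controls lived beside a new same-strain neighbour each day behind a divider, without physical contact. Defeated mice were susceptible where their social interaction ratio was low against controls of their strain and resilient otherwise, and mice at the extremes of that ratio were taken, so the groups were defined by behaviour and not assigned. The BNST libraries held mRNA recovered with the Argonaute protein AGO2, which carries microRNAs on their targets, from B6 mice only. There were 5 control, 5 resilient and 4 susceptible libraries, each from a pool of BNST from 3 mice. The blood libraries held total RNA of trunk blood from single mice, depleted of globin and ribosomal RNA, with 5 B6 control, 5 B6 resilient, 5 B6 susceptible, 5 D2 control and 5 D2 susceptible mice.

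Complex I is the entry point of the mitochondrial respiratory chain: it takes electrons from NADH, passes them along a row of iron-sulphur clusters to ubiquinone, and pumps protons across the inner membrane. Its hydrophilic peripheral arm holds the cofactors, and its membrane arm holds the pumps, whose central subunits are encoded by mitochondrial DNA. The nuclear genes described here comprised 6 core catalytic subunits of the peripheral arm (Ndufv1, Ndufv2, Ndufs1, Ndufs3, Ndufs7 and Ndufs8), 9 peripheral arm accessory subunits, 9 accessory subunits of the proximal membrane arm, 10 of the distal membrane arm, and Ndufab1, the mitochondrial acyl carrier protein. Neurons depend on this chain for most of their ATP, whereas mature red blood cells, the commonest cells of blood, have lost their mitochondria.

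The BNST libraries held 3701281 to 10659882 reads and the blood libraries 9751603 to 15878495. The lowest read number of a complex I gene in any library was 11 in BNST and 22 in blood. Library sizes had been rescaled by factors of 0.912 to 1.08 in BNST and 0.644 to 1.53 in blood before values were expressed as log2 CPM (the log2 of read counts scaled to a common library size). In D2 blood, the deposited column names and the labels disagreed for 2 mice. The mouse labelled D2 control 2 stood in a column named as susceptible, and the mouse labelled D2 susceptible 2 in a column named as control. Labels define the groups here, and the D2 comparisons are also given with the column-name groups, whereas D2 control levels per kilobase are by label. The study adjusted the BNST values for experimental cohort, but the deposited values are whole reads on a log scale without that adjustment and the labels give no cohort, so no cohort term was fitted and its part in the BNST results was not tested. A gene was called, by the study's thresholds, where its unadjusted limma p was under 0.05 and its change was at least 1.2-fold. Results given as without the authors' scaling factors are from limma with voom on the recovered whole reads. That fit also weights each value and fits no mean-variance trend, so a changed call cannot be credited to the scaling alone. Over all genes, 206 were called between D2 susceptible and control blood by label and 890 by column name. The number that the paper reports for this comparison is nearer the column-name count, and which grouping is right is not known. Adjusted p-values are from limma with Benjamini-Hochberg adjustment over all genes of a tissue, exact p-values are from two-sided exact permutation tests of 1 gene, and errors of log2 fold changes are standard errors (SE). All p-values measure the spread between these samples.

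The complex I genes differed widely in level. On a scale of CPM per kilobase of exon, the highest mean levels in BNST control pools were those of Ndufa3 (49.9 ± 2.23, SD, n = 5), Ndufb10 (40.6 ± 7.56) and Ndufb9 (39.4 ± 3.46), all membrane arm accessory subunits. The lowest levels on that scale were those of Ndufs5 (4.96 ± 0.865), Ndufab1 (4.49 ± 0.318) and Ndufb4 (3.04 ± 0.117). Exon length was the union of all annotated exons of a gene, 6883 bases for Ndufab1, and the order differed in plain CPM. In CPM, Ndufs1 was the highest member in BNST controls, at 207 ± 19.2, and Ndufab1 was at 30.9 ± 2.19. In B6 control blood the order began with Ndufa1 (147 ± 17.7 CPM per kilobase, n = 5), Ndufa3 (81.6 ± 16.0) and Ndufb9 (66.6 ± 11.0) and ended with Ndufb4 (2.02 ± 0.471), Ndufb2 (1.69 ± 0.217) and Ndufab1 (0.993 ± 0.0977). In D2 control blood Ndufa1 was again first, at 197 ± 71.6 CPM per kilobase, and Ndufab1 last. The spread of a complex I gene within its group was small: the SD of log2 CPM had a median of 0.215 in BNST and 0.231 in blood, against 0.276 and 0.361 over all genes. Of the 35 genes, 15 have exon bases in common with another annotated gene, on the same strand for 3 of them (Ndufb2, Ndufb8 and Ndufb9), and the strand setting of the counting was not given in the sources used here.

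Susceptible against control BNST pools addressed whether defeat followed by social avoidance went with other amounts of AGO2-bound complex I mRNA. Susceptible pools had less Ndufc2, Ndufv3, Ndufa7, Ndufa12 and Ndufb6 mRNA than controls, each by 1.23-fold to 1.38-fold, and more Ndufv1 mRNA, by 1.23-fold. Thus 5 of 35 complex I genes (14.3%) were called lower, where 9.28% of all genes were, and 1 was called higher, where 9.65% of all genes were. No member had an adjusted p under 0.05; the smallest was 0.0650, for Ndufc2. For all 6 called genes the susceptible and control pools did not overlap, as was so for 5.05% of all genes with susceptible pools lower and 5.9% with susceptible pools higher. Their exact p was 0.0159, the smallest that 4 against 5 pools can give. A lower level in such bulk tissue can come from fewer cells that express the gene or from less RNA per cell. These 2 cannot be told apart, nor can less total mRNA be told apart from less mRNA on AGO2. The libraries also differed in composition. Of all reads, the 10 most abundant genes held 10.01 to 11.47% in control and 6.395 to 9.155% in susceptible pools. In resilient pools they held 7.34 to 12.64%. The scaling factors were 0.968 to 1.01 in control and 0.998 to 1.08 in susceptible pools. The part of library composition in the called genes was not tested.

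Among the core catalytic subunits, Ndufv1 was the called one. It lies at chr19:4007384-4012806 (GRCm38, minus strand) and its product binds the flavin that accepts electrons from NADH. Its level was 5.87, 6.09, 6.08, 6.16 and 6.16 log2 CPM in the 5 control pools and 6.34, 6.53, 6.21 and 6.42 in the 4 susceptible pools, so every susceptible pool was above every control pool. The difference was 0.30 ± 0.11 on the log2 scale (adjusted p = 0.118), and the call was lost without control pool 1 or susceptible pool 2, 2 of the 9 fits that left out a pool. The other core subunits were not called, with log2 fold changes of -0.16 ± 0.12 for Ndufv2, 0.00 ± 0.12 for Ndufs1, 0.14 ± 0.11 for Ndufs3, 0.12 ± 0.17 for Ndufs7 and -0.01 ± 0.16 for Ndufs8. Ndufv2, Ndufs1, Ndufs7 and Ndufs8 carry iron-sulphur clusters, and Ndufs3 is a core subunit without one.

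The 9 peripheral arm accessory genes all had negative log2 fold changes in susceptible pools, with a median of -0.28, and 3 were called lower; without the authors' scaling factors 8 of the 9 were negative. Ndufv3 (chr17:31520115-31531331, plus strand) encodes a small accessory subunit beside the NADH-binding site. It was at 4.43, 4.40, 4.84, 4.42 and 4.25 log2 CPM in controls and at 4.04, 4.19, 4.06 and 4.02 in susceptible pools, a log2 fold change of -0.39 ± 0.17 (adjusted p = 0.185). Ndufa7, a subunit near the ubiquinone side of the arm, was at 3.93, 4.00, 4.19, 3.93 and 3.94 in controls and at 3.56, 3.81, 3.57 and 3.51 in susceptible pools (log2 fold change -0.39 ± 0.17, adjusted p = 0.202). In both genes control pool 3 was the highest control, and the susceptible pools lay below all 5 controls. The call was lost in 4 of the 9 fits that left out a pool for Ndufv3 and in 5 for Ndufa7. Ndufa12, which takes its place late in assembly of the peripheral arm, was at 4.27, 4.29, 4.42, 4.38 and 4.24 in controls and at 4.09, 3.99, 4.16 and 3.76 in susceptible pools (log2 fold change -0.32 ± 0.13, adjusted p = 0.154). Susceptible pool 4 was the lowest, and without it the change of Ndufa12 was -0.24 and not called.

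In the membrane arm, Ndufc2 (chr7:97400003-97407802, plus strand), a small membrane subunit of the proximal part, had the largest change. It was at 4.16, 4.12, 4.37, 3.88 and 4.14 log2 CPM in controls and at 3.78, 3.45, 3.84 and 3.60 in susceptible pools. The log2 fold change was -0.47 ± 0.14 (adjusted p = 0.0650), and it stayed called when any of the 9 pools was left out, between -0.53 and -0.39. Ndufb6, of the distal part, was at 3.77, 4.01, 4.02, 3.86 and 3.97 in controls and at 3.74, 3.60, 3.52 and 3.64 in susceptible pools (log2 fold change -0.30 ± 0.13, adjusted p = 0.196). The lowest control and the highest susceptible pool of Ndufb6 were close, and the call was lost in 6 of 9 fits that left out a pool. Ndufb6 shares exon bases with Smim27 on the opposite strand, whereas Ndufv1, Ndufv3, Ndufa7, Ndufa12 and Ndufc2 overlap no annotated gene.

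**Figure D1:**
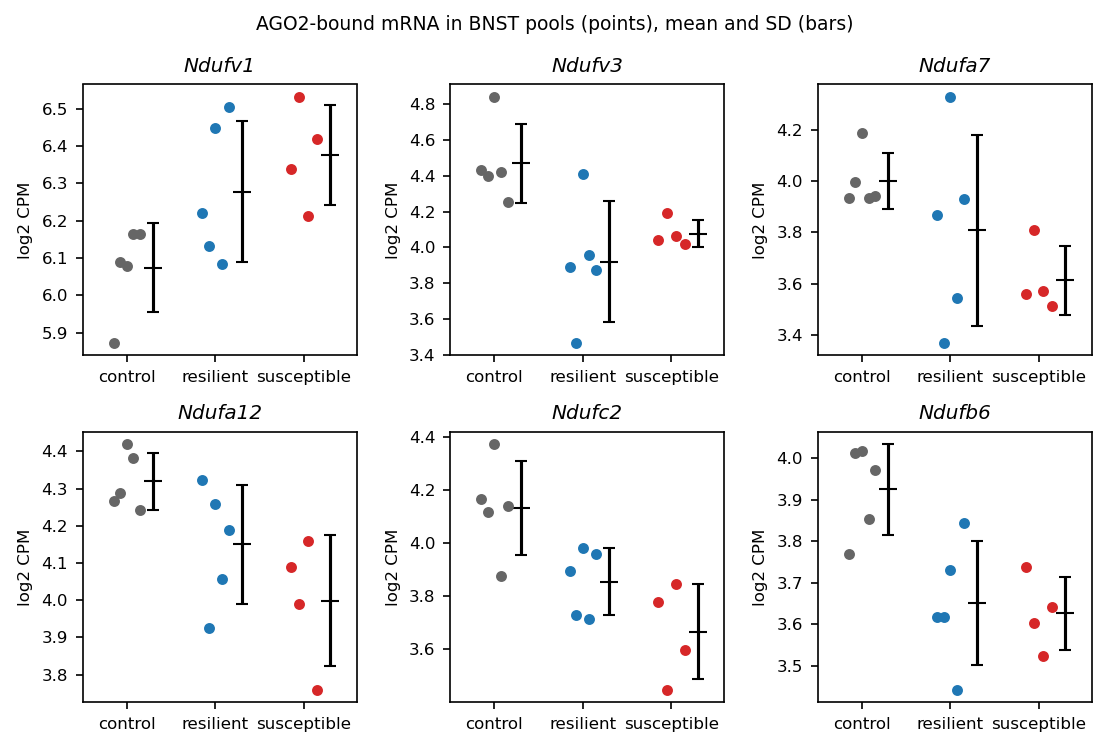
AGO2-bound mRNA levels (log2 CPM, vertical axis) of the 6 called complex I genes in control (5), resilient (5) and susceptible (4) BNST pools; points are pools and bars are group means with SD. The susceptible pools lie wholly above the controls for Ndufv1 (from 6.21 against up to 6.16) and wholly below them for the other genes.

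Over all 35 members, 26 had negative and 9 positive log2 fold changes in susceptible pools, with a median of -0.10, against -0.01 over all genes. The SD of the members' median between pools of a group was 0.101. Without the authors' scaling factors 20 members were negative, the median was -0.05 for members and 0.06 for all genes, and Ndufv1 and Ndufc2 were the 2 members called. Leaving out control pool 3, susceptible pool 3 or susceptible pool 4 left 3 complex I genes called. The 95% interval of each of the 35 changes lay within 2-fold.

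Resilient against control pools gave fewer called genes. Ndufv3, Ndufc2 and Ndufb6 were called lower, 3 of 35 members where 9.04% of all genes were called lower, and no member was called higher where 8.65% of all genes were. Ndufv3 was at 3.89, 3.47, 4.41, 3.96 and 3.87 log2 CPM in resilient pools. Resilient pool 3 lay among the controls and the other 4 lay below all of them. The log2 fold change of Ndufv3 was -0.55 ± 0.16 (adjusted p = 0.0683, exact p = 0.0238), and it stayed called in each of the 10 fits that left out a pool. Ndufc2 was at 3.89, 3.73, 3.98, 3.71 and 3.96 (log2 fold change -0.28 ± 0.13, adjusted p = 0.234, exact p = 0.0317), and Ndufb6 at 3.62, 3.62, 3.73, 3.44 and 3.84 (-0.28 ± 0.12, adjusted p = 0.212, exact p = 0.0159). These 2 calls were lost in 7 and 6 of the 10 fits. For no member did the resilient and control pools separate wholly, as they did in 2.18% of all genes with resilient pools lower and 3% with resilient pools higher.

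Further members named by size of change in resilient pools were Ndufa8 (-0.32, adjusted p = 0.261) among the lower values and Ndufv1 (0.20, adjusted p = 0.264), Ndufab1 (0.14) and Ndufs1 (0.10) among the higher, and none was called. The remaining core subunits gave log2 fold changes of -0.18 for Ndufv2, 0.08 for Ndufs3, 0.08 for Ndufs7 and -0.19 for Ndufs8. As in susceptible pools, 26 members were negative and 9 positive, with a median of -0.09 against -0.02 over all genes, and both contrasts used the same 5 control pools. Resilient pool 3 decided the count: without it 8 members were called and the median was -0.20. Ndufv3 was the 1 gene still called where any of controls 3 and 5 and resilient pools 1 and 4 was left out.

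Susceptible and resilient pools, which share no libraries, were compared directly. No complex I gene was called by limma, where 0.953% of all genes were called higher and 1.19% lower. The median was -0.00, with 17 positive and 18 negative members, and 0.06 with 23 positive without the authors' scaling factors. One member, Ndufb8, of the distal membrane arm, had an unadjusted limma p under 0.05, with a log2 fold change of 0.22 (exact p = 0.0317) that was under 1.2-fold. In the fit without those factors 1 member was called. Ndufv1 differed by 0.10 ± 0.11 and Ndufc2, the gene with the largest change in susceptible pools against controls, by -0.19 ± 0.14, susceptible minus resilient.

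The 7 complex I subunits that mitochondrial DNA encodes form the pumps and the ubiquinone end of the membrane arm, and 5 of them were among the BNST genes. Their median log2 fold change in susceptible pools was -0.54. Of these 5, mt-Nd2 (-0.54 ± 0.25), mt-Nd4 (-0.49 ± 0.20) and mt-Nd5 (-0.56 ± 0.16, adjusted p = 0.0605) were called lower, where 9.28% of all genes were. Susceptible pools 2 and 3 were the lowest, with mt-Nd5 at 7.98 and 8.29 log2 CPM while pools 1 and 4 were at 8.75 and 8.80 and controls ran from 8.79 to 9.17. Leaving out susceptible pool 2, susceptible pool 3 or control pool 2 left mt-Nd5 alone called. Without control pool 1, 3 or 4, mt-Nd2 was not called. The median was -0.27 without susceptible pool 2 and -0.46 without control pool 2. In resilient pools the median of these 5 genes was 0.02 and none was called. Of the nuclear genes called lower in susceptible pools, Ndufc2 was lowest in susceptible pool 2 and Ndufb6 in pool 3. Ndufv3, Ndufa7 and Ndufa12 were lowest in susceptible pool 4.

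For the gene lists that follow, 9.65% of all genes were called higher and 9.28% lower in susceptible pools. In resilient pools the shares were 8.65% and 9.04%. Of 16 complex I assembly factors in the BNST values, 3 were called higher in susceptible pools and 2 lower. Ndufaf5, which modifies Ndufs7 early in assembly, was higher by 0.38 ± 0.14, Acad9, a flavoprotein of membrane arm assembly, by 0.35 ± 0.12, and Foxred1, an oxidoreductase of mid-stage assembly, by 0.28 ± 0.10. Ndufaf2, a paralogue of Ndufa12 that precedes it on the assembling complex, was lower (-0.61 ± 0.23), as was Tmem70 (-0.49 ± 0.21), better known for complex V assembly. In resilient pools Foxred1 was called higher (0.33) and Tmem70 lower (-0.45). Elsewhere in the chain, 3 of 12 complex IV genes were called lower in each defeated group: Cox8a (-0.76 in susceptible and -0.74 in resilient pools), Cox5a (-0.41 and -0.40) and Cox5b (-0.32 and -0.29). One complex II gene, Sdhd (-0.42 and -0.35), and 1 complex III gene, the Rieske protein gene Uqcrfs1 (-0.56 and -0.56), were also called lower, and of 15 complex V genes none was called in susceptible pools and Atp5g2 in resilient pools (-1.06). Among 9 regulators of mitochondrial biogenesis, the coactivator Ppargc1a (-0.31) and Yy1 (-0.28) were called lower and the NRF2 subunit Gabpb1 higher (0.33) in susceptible pools.

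Cell type markers of several lists moved in the same contrast, in which 9.28% of all genes were called lower and 9.65% higher. In susceptible pools 4 of 9 neuron markers were called lower, and their summed level was 2247 to 2564 CPM in controls, 2066 to 2297 in resilient and 1711 to 2239 in susceptible pools. Of 7 oligodendrocyte markers 3 were called lower and 1 higher (sums of 3651 to 5390 CPM in controls and 2234 to 3692 in susceptible pools), and of 7 astrocyte markers likewise 3 lower and 1 higher (1674 to 1927 and 1295 to 1626). Of 6 choroid plexus markers, from tissue next to the dissected area, 4 were called lower, with sums of 33.0 to 195 CPM in controls, 24.6 to 143 in resilient and 12.6 to 63.0 in susceptible pools. Microglia marker sums were 153 to 189 CPM in controls and 147 to 198 in susceptible pools. Monocyte marker sums, with 3 of 6 genes present, were 40.3 to 53.5 CPM in controls and 54.3 to 66.0 in susceptible pools. All 9 neuron markers were present, and the part of these shifts in the complex I values was not tested.

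**Figure D2:**
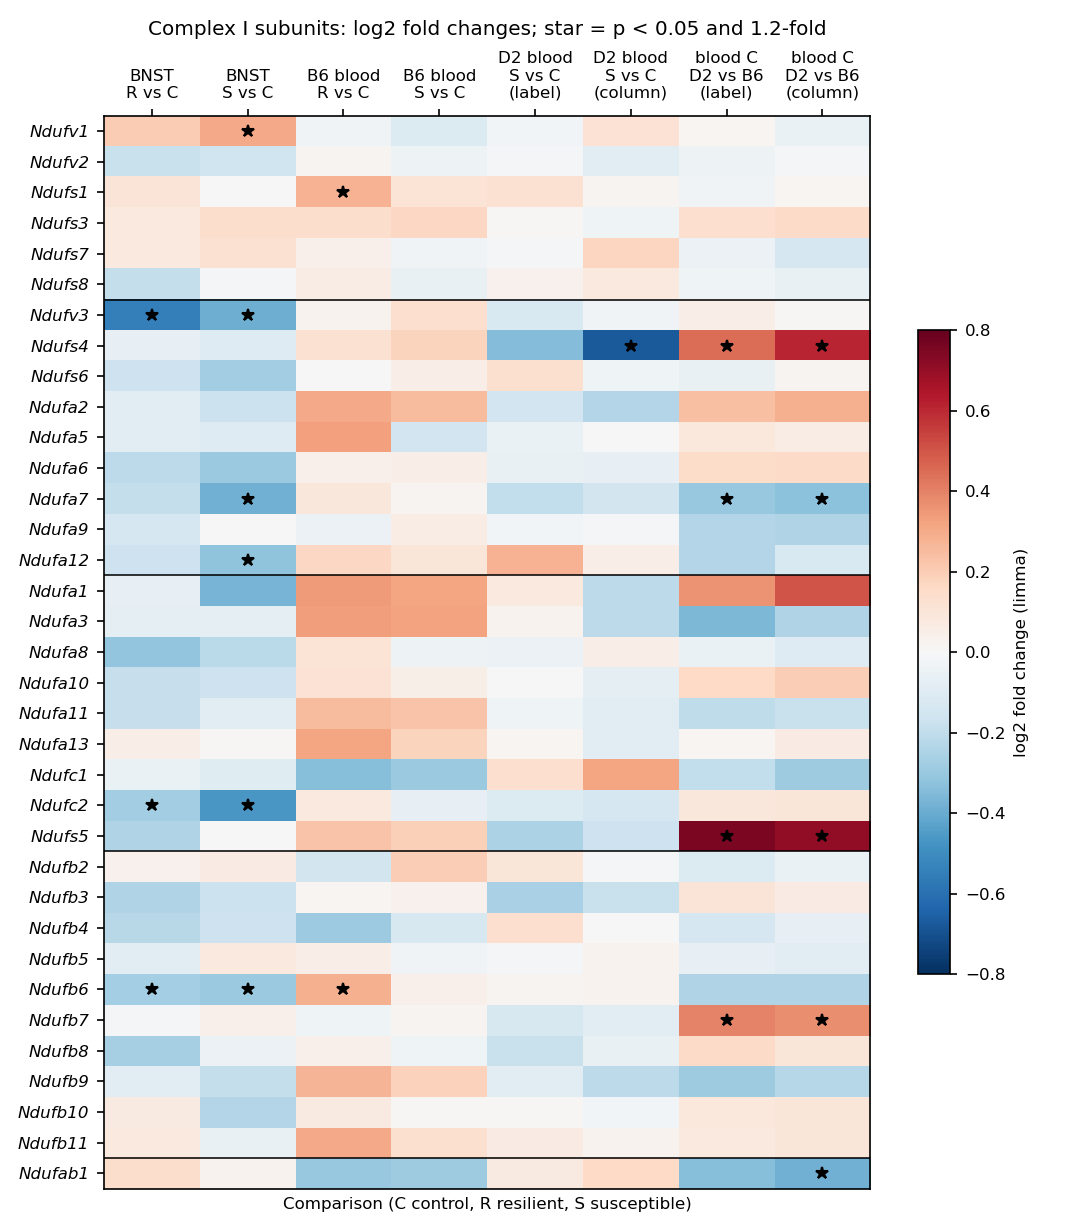
Log2 fold changes of the 35 complex I genes (rows, ordered by role) in the comparisons against controls and of the control strains (columns), with D2 comparisons shown for the label and the column-name groups; colour gives the value, red for higher and blue for lower, and stars mark called genes. The resilient and the susceptible BNST columns hold 26 negative values each, and the resilient and susceptible B6 blood columns 28 and 23 positive values, against 12 and 10 without the authors' scaling factors.

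In B6 blood the same genes were measured in single mice. Against controls, resilient mice had 2 complex I genes called higher, Ndufs1 and Ndufb6, where 0.848% of all genes were, and none called lower where 1.26% of all genes were. Ndufs1, the largest core subunit and the carrier of several iron-sulphur clusters, was at 5.74, 5.73, 5.41, 5.71 and 5.84 log2 CPM in controls and at 6.36, 6.15, 5.93, 5.66 and 5.73 in resilient mice. Resilient mice 4 and 5 lay within the controls and mice 1 to 3 above them, and the log2 fold change was 0.28 ± 0.12 (adjusted p = 0.985, exact p = 0.111). Ndufb6 was at 3.48, 3.85, 3.30, 3.55 and 3.48 in controls and at 4.05, 3.89, 3.59, 3.73 and 3.80 in resilient mice (0.28 ± 0.12, adjusted p = 0.985, exact p = 0.0635). Its groups overlapped through control mouse 2. Both genes share exon bases with a neighbour on the opposite strand (Eef1b2 for Ndufs1 and Smim27 for Ndufb6), and the call was lost in 3 and 5 of the 10 fits that left out a mouse. Of the 7 alternatives that kept every mouse, Ndufs1 was not called in 5 and Ndufb6 in 2.

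Of the members with the largest changes in resilient mice, Ndufa1 (0.34), Ndufa3 (0.34) and Ndufa5 (0.33) were higher in mean, and Ndufc1 (-0.34), Ndufab1 (-0.30) and Ndufb4 (-0.29) lower, and none of these was called. In mean, 28 members were higher and 7 lower, with a median of 0.08 against 0.02 over all genes. That sign was not kept in the fit without the authors' factors, in which 23 members were lower. There the median was -0.09 for members and -0.15 for all genes. The count was set by single mice. It was 8 without resilient mouse 5, 5 without resilient mouse 4, 4 without control mouse 1, 1 without control mouse 5 or resilient mouse 1, and 0 without control mouse 3 or resilient mouse 2.

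Susceptible against control B6 mice gave no called complex I gene by limma and none at an unadjusted p under 0.05, where 2.98% of all genes were called higher and 1.52% lower. The largest values were Ndufa3 (0.32), Ndufa1 (0.31) and Ndufa2 (0.25), and Ndufc1 (-0.30), Ndufab1 (-0.29) and Ndufa5 (-0.15). The core subunits gave -0.11 ± 0.13 for Ndufv1, -0.04 for Ndufv2, 0.11 for Ndufs1, 0.17 for Ndufs3, -0.03 for Ndufs7 and -0.06 for Ndufs8. The median was 0.04 against 0.02 over all genes, and without the authors' factors it was -0.10 against -0.13. All 35 intervals lay within 2-fold. Leaving out susceptible mouse 1 gave 2 called members, and leaving out susceptible mouse 2 or 4 gave 1.

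Between susceptible and resilient B6 mice, 1 complex I gene was called lower, where 0.91% of all genes were, and 1 higher, where 1.12% were. Ndufa5, an accessory subunit of the peripheral arm, was at 3.72, 3.25, 3.14, 3.22 and 3.13 log2 CPM in resilient mice and at 2.69, 2.90, 2.22, 3.18 and 3.07 in susceptible mice. Only susceptible mouse 4 reached the resilient range, and the log2 fold change was -0.48 ± 0.18 (adjusted p = 1.00, exact p = 0.0238). Ndufb2, of the distal membrane arm, was at 3.18, 3.32, 2.99, 2.74 and 3.22 in resilient and at 3.18, 3.46, 3.41, 3.70 and 3.46 in susceptible mice (0.35 ± 0.14, adjusted p = 1.00, exact p = 0.0317). Ndufb2 shares exon bases with 3 annotated genes, Braf among them. Neither gene was called with resilient mice set against controls or susceptible mice against controls. Leaving out resilient mouse 1, resilient mouse 4 or susceptible mouse 3 left 1 called gene.

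Beside these values, 5 of 7 platelet markers were called higher in susceptible B6 blood, and none in resilient blood. Their summed levels were 1552 to 5989 CPM in controls and 3888 to 10695 in susceptible mice. In susceptible B6 blood 2.98% of all genes were called higher and 1.52% lower. Platelets carry mitochondria. The erythroid marker sum was 126234 to 198385 CPM in controls and 65298 to 308227 in resilient mice, and no erythroid marker was called. The part of either in the complex I values was not tested. All 12 complex IV genes had positive log2 fold changes in both defeated groups, 10 in resilient and 8 in susceptible mice without the authors' factors, and Cox5a (0.61) and Cox6b1 (0.33) were called higher in susceptible mice. Of 16 assembly factors, Nubpl, which delivers iron-sulphur clusters to complex I, was called lower in susceptible mice (-0.78 ± 0.32). None of the 5 mitochondrially encoded subunits was called in B6 blood.

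In D2 blood no complex I gene was called between susceptible and control mice by label, where 0.68% of all genes were called higher and 0.894% lower. Of the members, 15 were positive and 20 negative, with a median of -0.01 against -0.02 over all genes. Quantile normalization gave 20 positive and 15 negative. The prefixes of the animals' names were unevenly spread over the D2 control and susceptible mice. With a prefix term, 21 members were positive by label (median 0.04 against -0.03 over all genes). By column name, that term gave 22 positive members (median 0.023 against -0.004). The largest values were Ndufa12 (0.28, exact p = 0.0476), Ndufb4 (0.14) and Ndufc1 (0.14), and Ndufs4 (-0.35 ± 0.19, adjusted p = 0.999, exact p = 0.206), Ndufb3 (-0.26, exact p = 0.0317) and Ndufs5 (-0.25). Ndufb3 alone had an unadjusted limma p under 0.05, and its change was just under 1.2-fold. The core subunits lay between -0.02 for Ndufv1 and 0.12 for Ndufs1. Leaving out a single mouse gave 0 to 2 called genes, with 2 (Ndufs4 and Ndufb3) without D2 control 2.

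Ndufs4 was the member that turned on the 2 mice whose labels and column names disagree. It lies at chr13:114287795-114388258 (minus strand) and encodes an accessory subunit next to the NADH-binding module, and its loss in mice is known to cause a fatal encephalopathy. By label, it was at 5.74, 4.80, 5.99, 5.61 and 5.58 log2 CPM in D2 control mice and at 5.06, 5.62, 5.36, 5.14 and 4.82 in D2 susceptible mice. The second value of each list is that of a disputed mouse: D2 control 2 was the lowest of all 10 D2 mice, and D2 susceptible 2 was the highest susceptible mouse, above 2 of the controls other than D2 control 2. With the column-name groups, all susceptible mice were below all controls and the log2 fold change was -0.67 ± 0.15 (adjusted p = 0.529, exact p = 0.00794, the smallest that 5 against 5 can give). In 0.78% of all genes the susceptible mice of that grouping were all below the controls. With both mice left out it was -0.64 ± 0.18 (adjusted p = 1.00). By column name, Ndufs4 was the 1 member called lower, where 4.39% of all genes were, and none was called higher, where 2.42% of all genes were. Further values in that grouping were Ndufc1 (0.31), Ndufs7 (0.17), Ndufab1 (0.16), Ndufa2 (-0.24) and Ndufb9 (-0.21), with a median of -0.03. The sign of the D2 change differed between groupings for 12 of 35 members.

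The change with defeat in D2 minus that in B6 was tested as an interaction. By label no complex I gene was called by limma and none had an unadjusted p under 0.05, where 0.803% of all genes were called higher and 4.57% lower. The most negative values were those of Ndufs4 (-0.52, exact p = 0.0901), Ndufs5 (-0.44) and Ndufa2 (-0.41, exact p = 0.0467), and the most positive those of Ndufc1 (0.44), Ndufab1 (0.36) and Ndufb4 (0.27). By column name 2 members were called lower, where 7.48% of all genes were, and none higher, where 2.61% were. They were Ndufs4 (-0.85 ± 0.22, adjusted p = 0.224, exact p = 0.00346) and Ndufa2 (-0.49, adjusted p = 0.346, exact p = 0.0134). The median over members was -0.06 by label and -0.09 by column name, against -0.01 over all genes in each, and by label 0.04 against 0.08 without the authors' factors. With a name-prefix term the median over members was -0.011 by label and -0.034 by column name, against -0.009 and -0.004 over all genes. For 32 of 35 members by label the interval of this difference lay within 2-fold. Platelet markers moved with it, 6 of 7 being called lower by label and 7 of 7 by column name, and their part in it was not tested.

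D2 control and B6 control blood were compared directly. By label 4 members were called, against 8 with quantile normalization, 6 with sample weights and 2 to 6 with 1 mouse left out. By label, Ndufs5, Ndufb7 and Ndufs4 were called higher in D2, 3 of 35 members where 15% of all genes were called higher, and Ndufa7 was called lower, where 11.4% of all genes were. Ndufs5 and Ndufb7 had adjusted p-values under 0.05, as did 8.81% of all genes with D2 higher. For these 2 genes every D2 control was above every B6 control, as in 6.44% of all genes, and no member had the reverse, as 5.59% of all genes did.

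Ndufs5 (chr4:123712710-123718202, minus strand), an accessory subunit of the proximal membrane arm on the side of the intermembrane space, was at 1.42, 1.36, 1.47, 1.29 and 0.99 log2 CPM in B6 control mice and at 1.84, 1.63, 2.03, 2.24 and 2.57 in D2 controls. Its log2 difference was 0.76 ± 0.21 (adjusted p = 0.0146, exact p = 0.00794). In defeated mice it spanned 1.19 to 2.02 in B6 and 1.41 to 2.28 in D2, and those ranges overlapped. Ndufb7 (chr8:83566671-83571626, plus strand), a distal membrane arm subunit that also faces the intermembrane space, was at 4.00, 4.13, 4.04, 3.83 and 3.81 in B6 controls and at 4.50, 4.14, 4.15, 4.32 and 4.66 in D2 controls (0.39 ± 0.13, adjusted p = 0.0346, exact p = 0.00794). The lowest D2 control and the highest B6 control of Ndufb7 were nearly equal. Both calls held in each of the 10 fits that left out a mouse, and with the column-name groups the differences were 0.71 (adjusted p = 0.0211, exact p = 0.0238) and 0.37 (adjusted p = 0.0432, exact p = 0.0238), with overlapping groups.

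Ndufs4 was at 4.98, 4.83, 5.12, 5.60 and 4.95 log2 CPM in B6 controls. The D2 controls other than the disputed mouse ran from 5.58 to 5.99, above every B6 control but mouse 4. The difference was 0.45 ± 0.19 by label (adjusted p = 0.132, exact p = 0.143) and 0.61 ± 0.15 by column name (adjusted p = 0.00607, exact p = 0.0159). Ndufa7 was at 4.04, 3.72, 3.99, 4.22 and 4.16 in B6 controls and at 3.73, 3.66, 3.76, 3.45 and 4.02 in D2 controls (-0.30 ± 0.13, adjusted p = 0.113, exact p = 0.0635, and -0.33 by column name). By label, the call of Ndufs4 was lost in 6 and that of Ndufa7 in 3 of the 10 fits that left out a mouse, and Ndufa7 was also not called without both disputed D2 mice or without the authors' scaling factors. D2 susceptible mice were at 3.67, 3.53, 3.47, 3.44 and 3.51 for Ndufa7. By column name 3 members were called higher, where 16.5% of all genes were, and 2 lower, where 13.3% were, the second being Ndufab1 (-0.39, adjusted p = 0.107, exact p = 0.00794). Over the 35 members the median difference was -0.03 against 0.01 over all genes, with 17 positive and 18 negative, and by column name 0.01 against -0.01, with 18 positive. By label and without the authors' factors it was 0.14, against 0.18 over all genes. The prefixes of the animals' names differ between the strains, so the strain and any batch that they mark cannot be told apart. Blood cell markers also differed between the strains: 4 of 7 platelet markers were called higher in D2, and 6 of 6 B cell and 5 of 10 erythroid markers lower (6, 6 and 4 by column name). By label, 15% of all genes were called higher and 11.4% lower. Monocyte marker sums were 398 to 660 CPM in B6 controls and 776 to 1474 in D2 controls, in either grouping. The part of these markers in the complex I values was not tested.

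**Figure D3:**
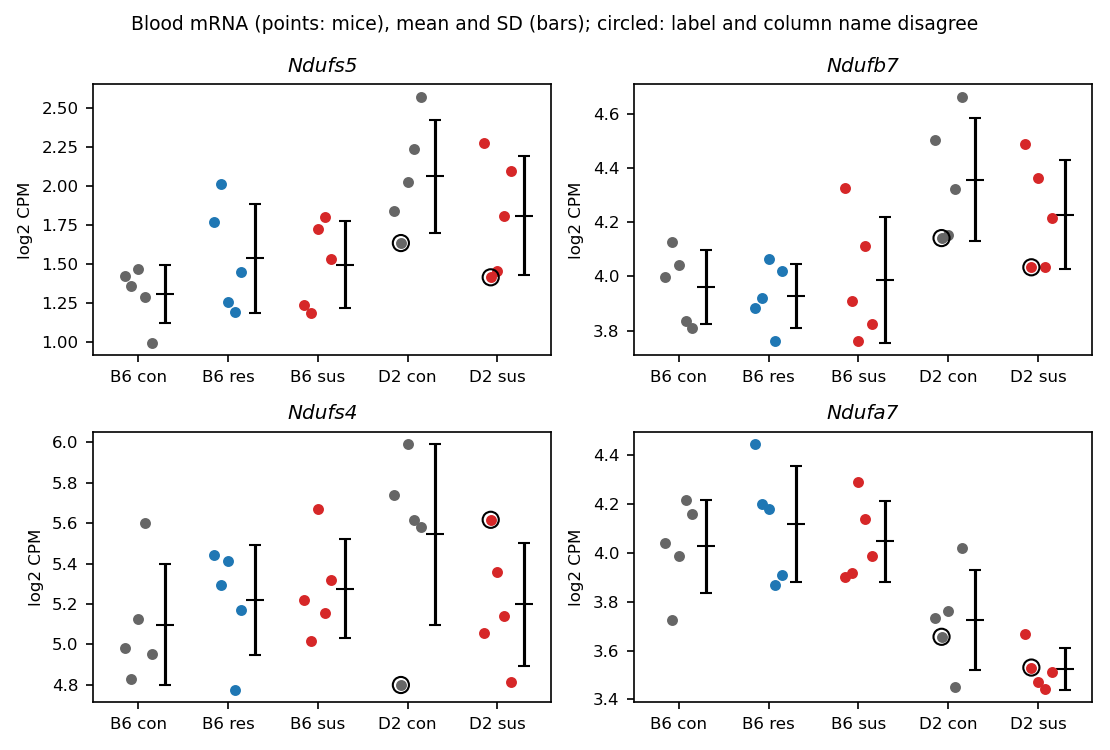
Blood mRNA levels (log2 CPM, vertical axis) of Ndufs5, Ndufb7, Ndufs4 and Ndufa7 in B6 control, resilient and susceptible and D2 control and susceptible mice (5 each, grouped by label); points are mice, bars are means with SD, and circles mark the mice whose labels and column names disagree. D2 controls lie above B6 controls for Ndufs5 and Ndufb7, and the circled mice of Ndufs4 are at 4.80 and 5.62.

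Complex I genes are known targets of the nuclear respiratory factors and YY1. The promoters of Ndufs5, Ndufb7 and Ndufs4, the members called higher in D2 controls, are therefore shown. The windows are from RefSeq (GRCm38.p6), run 5′ to 3′ from 250 bases before to 50 after the start, and lie at chr4:123718137-123718436 (minus strand), chr8:83566508-83566807 (plus strand) and chr13:114388045-114388344 (minus strand). Capitals mark a match to the searched letters, on either strand, of an NRF1 site (GCGCANGCG), an ETS core as bound by NRF2 (CCGGAAG) or a YY1 site (AAGATGGCG).
Ndufs5: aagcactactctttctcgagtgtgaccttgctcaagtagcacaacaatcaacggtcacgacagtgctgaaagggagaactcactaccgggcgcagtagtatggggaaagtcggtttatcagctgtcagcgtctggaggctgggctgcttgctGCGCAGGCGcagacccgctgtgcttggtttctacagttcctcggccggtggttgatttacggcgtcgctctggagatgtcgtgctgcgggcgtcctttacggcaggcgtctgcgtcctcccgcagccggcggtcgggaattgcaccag
Ndufb7: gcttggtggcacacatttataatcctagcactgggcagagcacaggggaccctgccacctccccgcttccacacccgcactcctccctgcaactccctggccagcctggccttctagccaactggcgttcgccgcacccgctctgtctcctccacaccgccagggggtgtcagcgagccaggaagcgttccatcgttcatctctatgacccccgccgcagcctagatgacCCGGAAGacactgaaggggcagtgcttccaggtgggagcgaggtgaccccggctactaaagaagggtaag
Ndufs4: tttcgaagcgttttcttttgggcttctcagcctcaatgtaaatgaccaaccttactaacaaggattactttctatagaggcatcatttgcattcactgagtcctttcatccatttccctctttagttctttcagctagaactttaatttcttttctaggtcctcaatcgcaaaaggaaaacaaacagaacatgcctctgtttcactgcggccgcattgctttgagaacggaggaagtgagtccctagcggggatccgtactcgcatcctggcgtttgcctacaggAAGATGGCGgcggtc
The match was an NRF1 site 98 bases before the start in Ndufs5, an ETS core 20 bases before it in Ndufb7 and a YY1 site 35 bases after it in Ndufs4. Promoters of 32 of the 35 members were matched, giving 34 windows. An NRF1 match stood in 9 of these (26.5%), against 6.25% of all 32851 promoters, 12.0% of those of genes in the BNST values and 13% of those in the blood values. ETS matches stood in 4 (11.8%, against 15.5% and 17.5% of promoters of genes in the BNST and blood values) and YY1 matches in 5 (14.7%, against 2.63% and 3.04%). Any of the 3 stood in 17 (50%), against 26.7% and 29.6%. Both windows of Ndufa5 overlap and hold the same NRF1 match, which is counted in each. By gene, 16 of the 32 members had a match. No match was present in these windows for Ndufv1, Ndufv3, Ndufa7, Ndufa12 and Ndufc2, and Ndufb6 had an ETS core 232 bases before its start. Of these, Ndufa7 was also called between the strains, lower in D2 controls, and its promoter is not shown. The strains were not compared in sequence, and all windows are of the reference strain.

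Members varied together to a modest degree. After group means were taken out, the median correlation between members over 595 pairs was 0.175 across 14 BNST libraries and 0.280 across 25 blood libraries, a description across samples that share a scaling. In blood Ndufa10 (0.888), Ndufv2 (0.864) and Ndufs1 (0.798) followed the mean of the other members most closely, and Ndufab1 (-0.31) and Ndufs7 (-0.14) ran against it. In BNST Ndufb6 (0.779) and Ndufb9 (0.766) were closest, and Ndufab1 (-0.47) and Ndufc1 (-0.27) farthest. The genes outside the list most like the members' mean were Uqcc2 (0.922), Xkrx (0.896), Atp5o (0.894), Uqcr11 (0.893) and Fth1 (0.892) in BNST, and Cox4i1 (0.874), Timm8b (0.864), Uap1 (0.815), Btf3 (0.800) and Rps15a (0.796) in blood. The members' mean was itself correlated with the authors' scaling factor (-0.41 in BNST and -0.42 in blood).

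**Figure D4:**
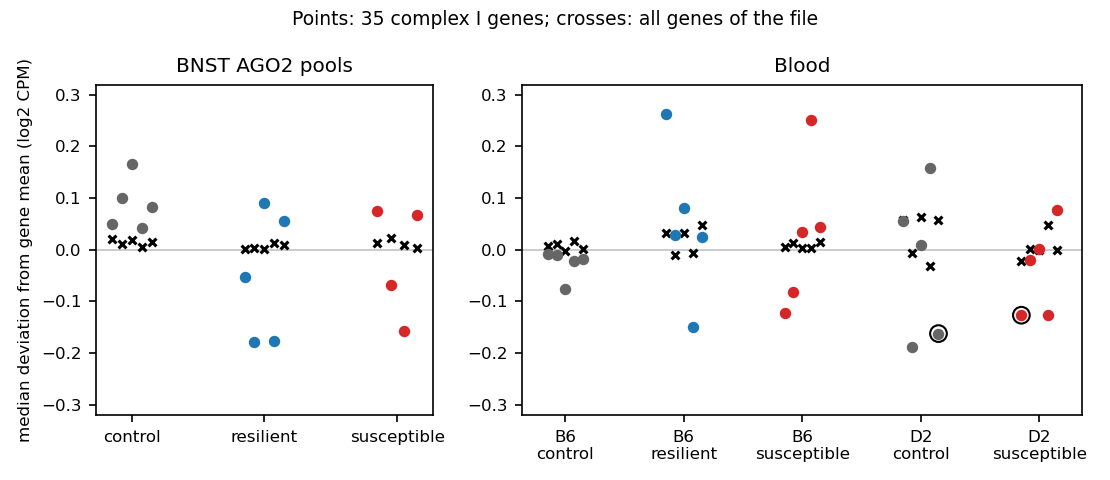
Median deviation of the 35 complex I genes (points) and of all genes (crosses) from each gene's mean in every library (log2 CPM, vertical axis), grouped by label; circles mark the D2 mice whose labels and column names disagree. BNST control pools lie between 0.04 and 0.17 and defeated pools between -0.18 and 0.09, and the highest blood values are B6 resilient 1 (0.26) and B6 susceptible 4 (0.25).

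Gene by gene, the sign of the change in susceptible mice was set side by side in BNST, B6 blood and D2 blood. By label, 5 members were lower in mean in all 3 (Ndufv2, Ndufa5, Ndufa8, Ndufc2 and Ndufb8) and 4 higher in all 3 (Ndufs1, Ndufs3, Ndufa13 and Ndufb2). The most frequent pattern was lower in BNST, higher in B6 blood and lower in D2 blood, with 11 members, Ndufv3, Ndufs4 and Ndufa7 among them. By column name the 3 counts were 3, 1 and 15. These signs moved with the fit, since 25 of 35 members were negative in susceptible B6 blood without the authors' factors. In D2 blood, a term for the prefix of the animals' names gave 21 of 35 positive members by label and 22 by column name. The BNST and blood values come from different kinds of library and the blood contrasts rest on different mice, and most of these changes were within the spread of their groups. Ndufb6, called lower in both defeated BNST groups and higher in resilient B6 blood, was the only member called against controls in both tissues.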

How the data were processed

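Per the labels and the study's methods, AGO2-bound BNST mRNA and blood RNA were sequenced, aligned to GRCm38 and counted per gene, and genes of low count were removed. The authors deposited log2 CPM (log2 of read counts scaled to a common library size), adjusted by a size factor per library, with 0.5 reads added. Whole reads were recovered from these values to a tolerance of 0.0001 and used for depth, for CPM and in 1 alternative. Each tissue was fitted over all genes with limma 3.58.1 (R 4.3.3; linear model over all groups, empirical Bayes with trend), and p-values were adjusted by Benjamini-Hochberg. The threshold was an unadjusted p under 0.05 with at least a 1.2-fold change. Single genes were tested by two-sided exact permutation (scipy 1.17.1), for the interaction by permuting labels within strains. The fit was tested on simulated data. The animals behind a pool or mouse were taken as separate samples, and no 2 libraries were identical. The study's ComBat adjustment for cohort in the BNST data is not in the deposited values and was not made here. Groups came from the labels. The members and the gene lists were chosen with earlier results of these data known. Named members were those called in a comparison, the 3 largest changes in each direction against controls, the core subunits and the most and least abundant, and correlation ranked the 5 genes most like their mean. Exon lengths and overlaps came from GENCODE M21 and promoters from RefSeq. Alternatives were sample weights, quantile normalization, voom on the recovered reads, no trend, a mean log2 CPM of at least 2, only the compared groups, a name-prefix term, a replicate block, the column-name D2 groups and leaving out each library. Leaving out both disputed D2 mice, and the column-name groups with a prefix term, were added after seeing the data.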

Additional observations from a re-analysis of the deposited data

Results flagged for a closer look

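Of 104 sets of 4 or 5 samples examined, 3 held a sample far from the others, where chance alone gives about 5%. For Ndufa7 in BNST control pools, pool 3 was at 4.19 log2 CPM and the other 4 lay between 3.93 and 4.00, and without that pool the lower level in susceptible pools was not called. For Ndufa5 in B6 blood, resilient mouse 1 was at 3.72 log2 CPM and the other 4 lay between 3.13 and 3.25, and without that mouse the difference between susceptible and resilient mice was not called. For the median deviation of the 35 complex I genes, B6 blood control 3 was at -0.0761, while the other B6 controls lay between -0.0212 and -0.00894.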

How the results depend on the processing

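None of the 17 called results by label reversed under an alternative, whereas 12 of the 35 uncalled D2 changes had another sign with the column-name groups. The calls of Ndufv3 in resilient and of Ndufc2 and Ndufv1 in susceptible BNST pools held under all 7 alternatives that kept every pool, with adjusted p of 0.0307 to 0.181, 0.0324 to 0.102 and 0.0443 to 0.161, and those of Ndufs5 (0.0071 to 0.0245) and Ndufb7 (0.00634 to 0.12) in D2 against B6 controls under all that could be run; Ndufs5 fell under the mean filter. The cause of the changes below was not tested, except that fewer samples enter where libraries are left out. With sample weights the members called were 6 in resilient BNST pools (3 in the report), 4 in resilient B6 blood (2), 1 in susceptible B6 blood (0), 1 between susceptible and resilient B6 blood (2), 2 in D2 blood (0) and 3 in the interaction (0). Between strains they were 6 with sample weights (4), 5 without the trend and 3 with the mean filter. Members with an adjusted p under 0.05 between strains were 5 with sample weights (2). Quantile normalization gave 1 in resilient and 5 in susceptible BNST pools (6), 1 in resilient B6 blood and 8 between strains (4). Voom on the recovered reads drops the authors' scaling, weights each value and fits no trend. The counts with it were 2 in susceptible (6) and 2 in resilient BNST pools (3), and 1 between them (0). They were 0 in resilient B6 blood, 0 between susceptible and resilient B6 blood, 1 in D2 blood and 5 between strains (4). The medians were -0.0896 in resilient and -0.10 in susceptible B6 blood and 0.14 between strains. Fitting only the compared groups gave 1 in resilient and 7 in susceptible BNST pools (6), 1 in resilient B6 blood and 1 between susceptible and resilient B6 blood. A name-prefix term gave 1 in resilient B6 blood, and could not be fitted between strains. With column-name groups the counts were 1 in D2 blood and 2 in the interaction, with the prefix term added 1 and 1, and without both disputed D2 mice 2 and 2. Between strains the count was 5 with column-name groups and 5 without both disputed D2 mice.

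With each library left out in turn, the members called ranged from 1 to 8 in resilient and 3 to 6 in susceptible BNST pools, 0 to 2 between them, 0 to 8 in resilient and 0 to 2 in susceptible B6 blood, 1 to 3 between them, 0 to 2 in D2 blood, 0 to 2 in the interaction and 2 to 6 between strains. The counts for D2 blood and the interaction were 2 without D2 control 2, and the interaction was also 2 without B6 susceptible 2. Between strains the count was 2 without B6 control 5 or D2 control 4. The median ranged from -0.195 to -0.0870 in resilient and -0.15 (without susceptible 1) to -0.05 (without susceptible 3) in susceptible BNST pools. It spanned 0 in susceptible B6 blood (-0.02 without susceptible 4, 0.08 without susceptible 1) and between susceptible and resilient B6 blood (-0.12 to 0.02), where sample weights gave 0.10 and 0.04 (0.04 and -0.06 in the report). It also spanned 0 between susceptible and resilient BNST pools, in D2 blood, in the interaction and between strains.

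BNST pools with the same replicate number did not vary together (correlations of -0.172 to 0.140 for 13 pairs, against -0.264 to 0.224 for 52 others). The labels give no cohort, so these values cannot tell whether such pools shared a cohort or another batch. With a replicate block 2 members were called in resilient pools, 4 in susceptible pools and 0 between them.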
